A study of Danio rerio with 12 samples.

Results

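Fatty acid elongases of the elovl family were examined in the eyes of zebrafish with and without a working lrpap1 gene. The genes were chosen by name from the deposited gene table, and 9 of the 10 named genes were found among its 37055 genes (elovl1a, elovl1b, elovl2, elovl4a, elovl4b, elovl5, elovl6, elovl7a and elovl8b). elovl7b was not analysed here. Each sample was the pair of eyeballs of 1 fish at 3 months, from 6 wild-type zebrafish and from 6 fish of a stable homozygous lrpap1 mutant line. The mutants carry a CRISPR/Cas9 frameshift in lrpap1, which encodes a chaperone of lipoprotein receptor-related proteins. All mutants come from a single line, and the labels give no shared parents, tank or batch for the wild-type fish. Polyadenylated mRNA was sequenced, and the files hold a count of reads and a TPM value (count per gene length, scaled to the same total in each sample) for every gene.

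Elongases carry out the first, rate-limiting condensation of the cycle in the endoplasmic reticulum that lengthens a fatty acid by a pair of carbons, after which a ketoacyl-CoA reductase, a hydroxyacyl-CoA dehydratase and an enoyl-CoA reductase complete the turn. Family members differ in the chains they accept. The products of elovl1, elovl6 and elovl7 genes work mainly on saturated and monounsaturated chains, and those of elovl2, elovl4b and elovl5 lengthen polyunsaturated ones. The eye depends on both kinds, since photoreceptor outer segments are rich in docosahexaenoic acid and in very long polyunsaturated chains, while the ceramides and wax esters of surface epithelia need long saturated ones.

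The total count was between 7988538 and 9829112 reads per sample, which leaves elovl2, with 25 to 45 counts, less precisely measured than elovl4b, with 2719 to 4882 counts. lrpap1 mRNA was lower in the mutants, at 16.4 to 22.3 CPM (read counts relative to the TMM-scaled library size) against 22.0 to 31.3 CPM. The log2 fold change was -0.52, with a standard error of 0.11 (adjusted p = 0.0108, edgeR quasi-likelihood test). The defining markers of an eye were present in both genotypes, with rho at 15893 CPM or more in every sample. Wild-type replicate 3 stood apart, because crystallin genes made up 0.116% of its TPM and 12.4% to 20.4% of the TPM of the other 11 samples. Log2 fold changes that rest on it are given with and without it, and levels in TPM include it. Across all 18984 genes that passed the filter on low counts, 2124 (11.2%) had an adjusted p under 0.05, 1314 of them higher (6.92%) and 810 lower (4.27%) in the mutants. With scaling by library size only, the split was 1504 higher and 578 lower, so the share of higher genes was 72.2% in place of 61.9%.

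On the length-corrected scale, elovl4b was by far the most abundant elongase of the eye. Its product makes the very long polyunsaturated chains of photoreceptor membranes, and the human counterpart ELOVL4 is mutated in a dominant macular dystrophy. The TPM of elovl4b (chromosome 23, 40410768 to 40438581, forward strand, GRCz11) ran from 238 to 423 with a median of 281 in the wild-type samples. In the mutants its TPM ran from 244 to 382 with a median of 305, so the ranges overlapped. The 423 TPM was wild-type replicate 3, and the next highest wild-type sample had 315 TPM. It made up 59.1% ± 2.84 (SD, n = 6) of the summed TPM of the 9 elongases in wild-type eyes and 56.8% ± 3.76 (SD, n = 6) in mutant eyes. elovl6, whose product extends palmitate to stearate, came next with a mean of 104 ± 19.4 TPM (SD, n = 6) in wild-type and 95.8 ± 12.3 TPM (SD, n = 6) in mutant eyes. In all 12 samples elovl4b lay above elovl6, and elovl6 above every other member.

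**Figure D1:**
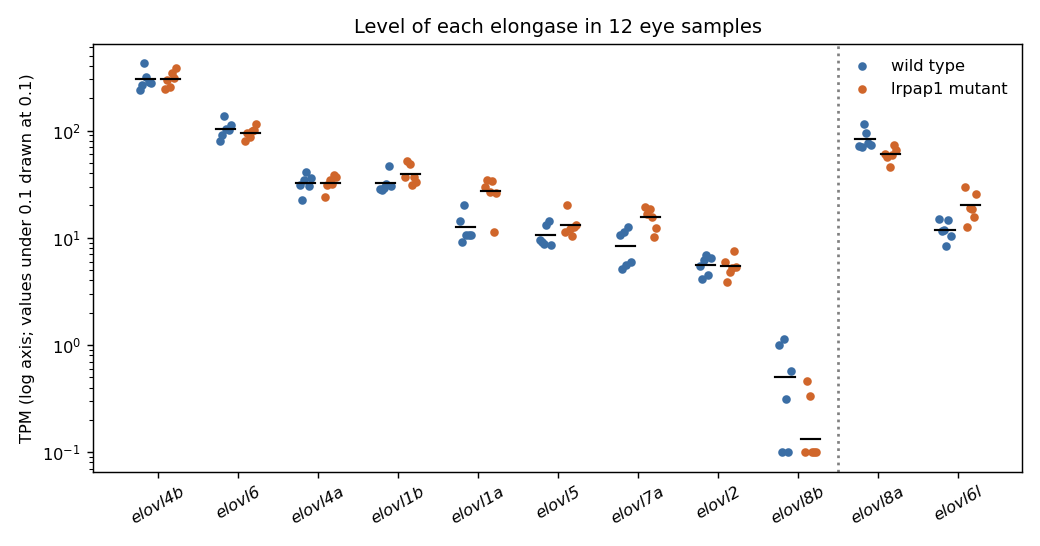
TPM of each elongase on a log axis, with 1 point per sample (6 wild-type and 6 lrpap1 mutant) and a bar at the mean of a genotype. Values under 0.1 are drawn at 0.1, and the genes right of the dotted line are elongases outside the named list. elovl4b lies highest at 238 to 423 TPM, elovl8b lowest at no more than 1.14 TPM, and most mutant samples lie above the wild-type samples for elovl1a and below them for elovl8a.

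Below these, elovl4a and elovl1b had nearly the same level in wild-type eyes, with means of 32.6 and 32.4 TPM and overlapping ranges, and elovl4a was the higher of the pair in 4 of the 6 fish. The following members, elovl1a, elovl5, elovl7a and elovl2, had wild-type means of 12.6, 10.5, 8.45 and 5.60 TPM. Among these, elovl1a and elovl5 overlapped, as did elovl5 and elovl7a, and elovl7a and elovl2, so this part of the order is not fixed by the data. In the mutants the means of elovl1b, elovl4a and elovl1a were 39.7, 32.6 and 27.1 TPM, each overlapping its neighbour, and elovl7a (15.5 TPM) stood above elovl5 (13.2 TPM) in only 3 of the 6 fish. elovl8b (chromosome 8, 18200334 to 18203329, reverse strand), a member of a fish elongase group, was close to the limit of detection. Its counts ran from 0 to 7 in wild-type and from 0 to 3 in mutant samples, 19 against 5 in all, and it was the only one of the 9 that the filter on low counts left out. When genes with any count at all were tested, its adjusted p was 0.297 (edgeR).

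In wild-type eyes the pair from each duplicated gene was unequal, and in mutant eyes this held in every fish for the elovl4 pair but not for the elovl1 pair. elovl4b exceeded elovl4a (chromosome 16, 5156459 to 5166830), whose mRNA in zebrafish is best known from the brain, by 7.69 to 12.3 times in TPM within the wild-type samples and by 7.40 to 10.9 times within the mutants. The ratio of elovl1b to elovl1a was 1.45 to 4.41 in wild-type and 0.910 to 3.27 in mutant samples, with medians of 2.92 and 1.37. The elovl1 genes were thus closer to each other in the mutants, although the ranges of the ratio overlapped. As shares of the summed TPM, elovl1a held 2.01% to 3.42% in wild-type and 2.15% to 6.57% in mutant eyes, and elovl7a held 1.06% to 2.51% and 1.91% to 4.30%. The summed TPM of the 9 elongases was 418 to 670 in wild-type and 450 to 625 in mutant eyes, with means of 507 ± 89.6 and 535 ± 62.1 (SD, n = 6 each). The 670 TPM was wild-type replicate 3, and the other wild-type samples were at 527 TPM or below.

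**Figure D2:**
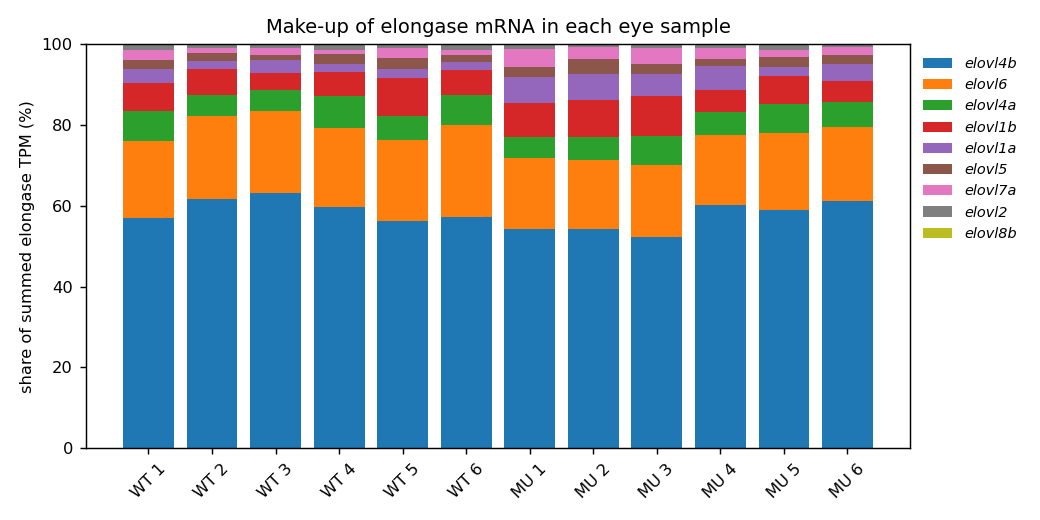
Share of each member in the summed TPM of the 9 elongases, in percent, with 1 bar per sample (WT, wild type; MU, lrpap1 mutant; numbers are replicates). elovl4b fills 56.1% to 63.1% of the wild-type and 52.2% to 61.2% of the mutant bars, and the elovl1a segment is widest in 5 of the mutant samples.

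The question put to each member was whether its mRNA differed between mutant and wild-type eyes. Of the 8 members with enough counts, 1 passed an adjusted p of 0.05, elovl1a, which was higher in the mutants. For all genes the share higher in the mutants at that threshold was 6.92%, so 1 of 8 does not set the family apart. None passed when an absolute log2 fold change over 1 was also required, as 4.55% of all genes did. By sign alone, 4 members were higher and 4 lower, and the median log2 fold change of the 8 was 0.05, against -0.02 over all genes tested. None of the 8 had genotypes without overlap in CPM, as 5.83% of all genes did, 3.69% with the mutants higher and 2.14% with the mutants lower. As the eye was sequenced whole, fewer cells of a type and less RNA per cell cannot be told apart for any of these genes.

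**Figure D3:**
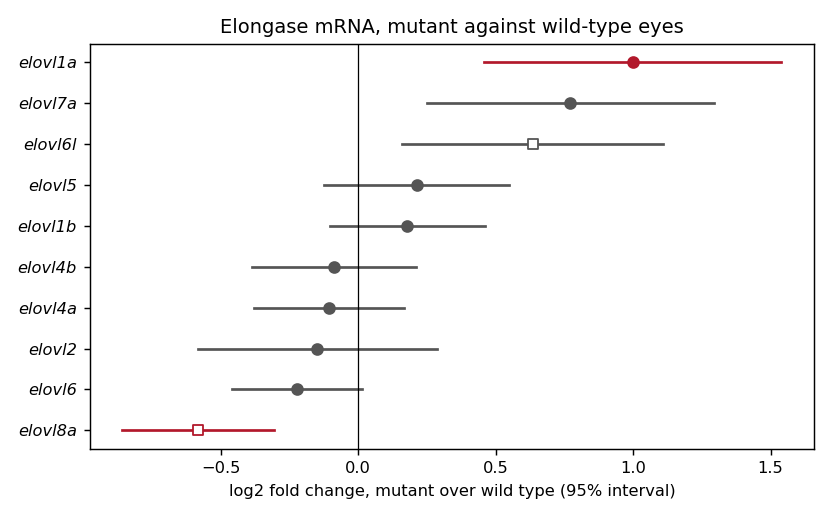
Log2 fold change of mutant over wild-type eyes with its 95% interval from edgeR's quasi-likelihood fit on 6 samples per genotype. Filled circles are named members, open squares the elongases outside the list, and red marks an adjusted p under 0.05: elovl1a at 1.00 and elovl8a at -0.58.

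elovl1a (chromosome 2, 19163961 to 19215114, forward strand) encodes an elongase of saturated and monounsaturated very long chains, which in mice is required for the skin barrier. Its wild-type samples had 11.2, 12.1 and 22.1 CPM as lowest, median and highest value, and its mutant samples 12.1, 30.03 and 38.9 CPM. In 5 of the 6 mutants it lay above every wild-type fish, while mutant replicate 5, at 12.1 CPM, lay within the wild-type range. The means were 14.5 ± 4.61 and 28.9 ± 9.34 CPM (SD, n = 6 each). This 2.00-fold rise, a log2 fold change of 1.00 with a standard error of 0.25 and a 95% interval of 0.46 to 1.54, had an adjusted p of 0.0216 (edgeR quasi-likelihood test). An exact permutation test of log2(CPM + 1) over all 924 arrangements of the genotypes gave an unadjusted two-sided p = 0.0152. Without wild-type replicate 3, the highest wild-type fish, the log2 fold change was 1.18 (adjusted p = 0.0101, edgeR), and the adjusted p stayed under 0.05 in all 21 alternative fits, with a range of 0.00196 to 0.0487.

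elovl7a (chromosome 8, 16758314 to 16769807), whose human counterpart ELOVL7 extends long saturated chains, had the next largest difference. It was measured at 5.20, 8.40 and 11.9 CPM (lowest, median, highest) in wild-type and at 9.44, 15.4 and 18.5 CPM in mutant samples. All 6 mutants were above the wild-type median and 4 were above the highest wild-type fish, and the wild-type fish themselves divided into 3 at 5.20 to 5.98 CPM and 3 at 10.8 to 11.9 CPM. With a log2 fold change of 0.77, a standard error of 0.24 and a 95% interval of 0.25 to 1.29, it missed the threshold (adjusted p = 0.0553, edgeR). It was passed in 8 of the 21 alternative fits, with DESeq2 (adjusted p = 0.0210), limma (0.0193), library size scaling (0.0461) and a filter that required 10 counts or more of each sample (0.0493), and when wild-type replicate 1 (0.0396), 3 (0.0480) or 5 (0.0323) or mutant replicate 5 (0.0311) was left out.

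Markers of other tissues also differed between the genotypes. Of the 12 markers of corneal and skin surface epithelium, 7 were higher in the mutants and none lower at an adjusted p under 0.05, with a median log2 fold change of 0.93 over the list. The 7 were krt4, krt17, epcam, cdh1, evpla, ppl and krt1-19d, with krt4, a keratin of superficial epithelium, at 620 to 1999 CPM in wild-type and 1909 to 3520 CPM in mutant samples. The remaining markers of that list did not pass, and both signs occurred among them. krt5 had a log2 fold change of -0.10 (adjusted p = 0.798, edgeR), krt91 -0.43 (0.238) and cldni -0.28 (0.277). tp63, the regulator of basal epithelium, had 0.30 (adjusted p = 0.342, edgeR) and pkp1b 0.52 (0.106). Mutant replicate 5, with 12.1 CPM of elovl1a, lay above every wild-type sample for krt4 (2229 CPM). Of the 7 that passed, it was within the wild-type range only for epcam, at 95.7 CPM against 54.3 to 109 CPM. Among the mutants, however, it was the lowest for epcam, cdh1 and evpla. Counted from the highest mutant down, it ranked 5 for krt4, ppl and krt1-19d and 4 for krt17. The summed level of the list was 10361 to 17911 CPM in wild-type and 10909 to 20708 CPM in mutant eyes, and no marker of the list was at 0. Leukocyte markers were higher too, in 5 of the 7 tested (ptprc, lcp1, coro1a, mpeg1.1 and marco), with summed levels of 430 to 938 and 635 to 1384 CPM and none at 0, while erythrocyte and muscle markers were lower in 2 of 5 and 1 of 7. Of all genes tested, 6.92% were higher and 4.27% lower at that threshold. Mutant replicate 5 also had the lowest summed leukocyte level of the mutants, at 635 CPM. The part of these tissues in the differences of elovl1a and elovl7a was not tested.

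**Figure D4:**
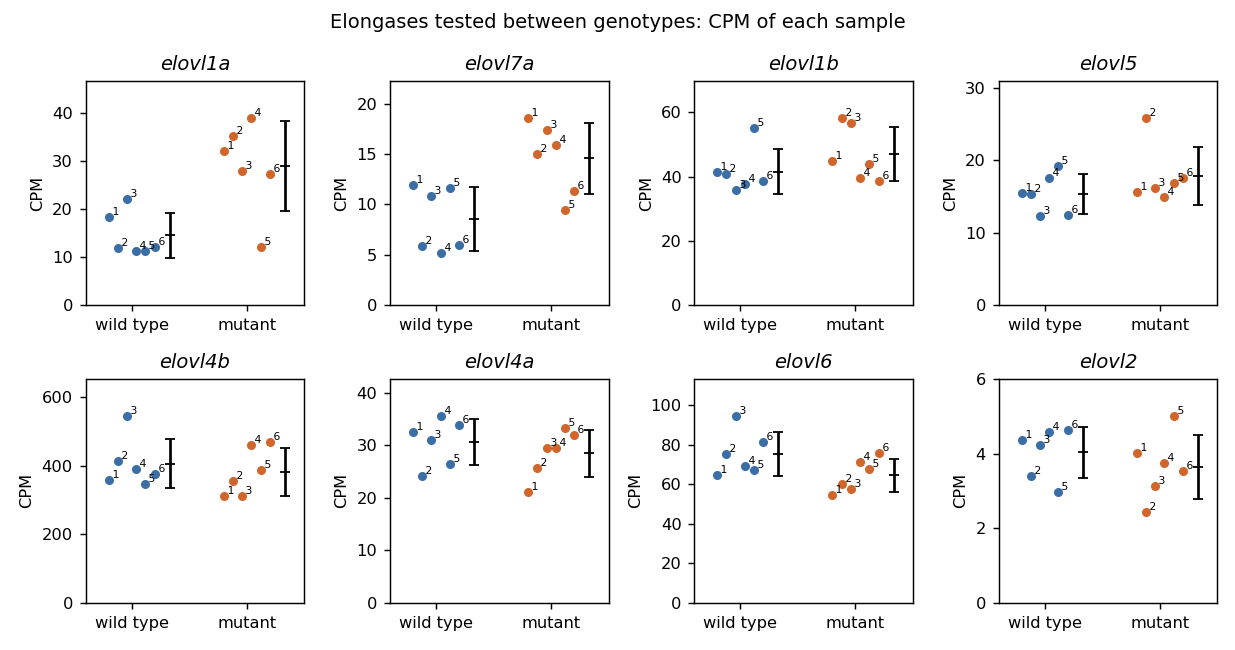
CPM of the 8 tested members in each sample, with the replicate number beside each point and the mean ± SD (n = 6) at the right of each genotype; each axis starts at 0. Mutant replicate 5 lies with the wild-type fish for elovl1a at 12.1 CPM, and wild-type replicate 3 is the highest of the 12 samples for elovl4b and elovl6.

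elovl1b (chromosome 11, 13094172 to 13152302), the other elovl1 gene, had 35.7, 39.7 and 55.1 CPM (lowest, median, highest) in wild-type and 38.7, 44.5 and 58.1 CPM in mutant samples. Its log2 fold change was 0.18 (95% interval -0.10 to 0.46, adjusted p = 0.411, edgeR). The interval holds no rise as large as that estimated for elovl1a, although the difference between the 2 genes was not tested. The high wild-type value was replicate 5 alone, the others being at 41.4 CPM or below.

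The members elovl4b, elovl4a, elovl5 and elovl2 showed no difference that passed. elovl4b was measured at 348, 385 and 545 CPM (lowest, median, highest) in wild-type and at 311, 371 and 469 CPM in mutant samples. Its mean was lower in the mutants in CPM (406 in wild-type and 382 in mutant samples) but not in TPM (301 and 305). Its log2 fold change was -0.09 (95% interval -0.38 to 0.21, adjusted p = 0.733, edgeR), and it was 0.03 (adjusted p = 0.908) without wild-type replicate 3. That sample was the highest of all 12, at 1.44 times the median of the other wild-type fish. It also had the highest summed level of the rod markers (35764 CPM) and of the cone markers (29035 CPM) of all 12 samples, and a summed level of lens markers of 160 CPM against 15995 to 31123 CPM elsewhere. The part of this tissue difference in its elovl4b level was not tested.

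elovl4a was measured at 24.1 to 35.6 CPM in wild-type and 21.2 to 33.2 CPM in mutant samples, giving a log2 fold change of -0.11 (95% interval -0.38 to 0.17, adjusted p = 0.638, edgeR). elovl5 (chromosome 13, 2394197 to 2417402), an early step in the synthesis of long polyunsaturated chains, was at 12.3 to 19.2 and 15.0 to 25.8 CPM, with a log2 fold change of 0.21 (95% interval -0.12 to 0.55, adjusted p = 0.412, edgeR). A single mutant, replicate 2, held the value of 25.8 CPM, and the other mutants were at 17.5 CPM or below. elovl2 (chromosome 24, 8863886 to 8887884), which acts late on the way to docosahexaenoic acid, was the scarcest of the tested members. It had 29 to 45 counts in wild-type and 25 to 44 counts in mutant samples, or 2.98 to 4.64 and 2.43 to 5.01 CPM. Its log2 fold change was -0.15, and the 95% interval of -0.58 to 0.29 was wider than those of elovl4b, elovl4a and elovl5 (adjusted p = 0.687, edgeR). These intervals bound what 6 fish per genotype can show and do not establish equal levels.

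elovl6 (chromosome 14, 36246726 to 36268034) was lower in the mutants by an amount that did not pass. Its values were 65.0, 72.2 and 94.6 CPM (lowest, median, highest) in wild-type and 54.7, 64.1 and 76.0 CPM in mutant samples. Of the 6 mutants, 3 lay below the lowest wild-type fish and 5 below the wild-type median. The log2 fold change was -0.22 (95% interval -0.46 to 0.01, adjusted p = 0.208, edgeR), and it was -0.13 without wild-type replicate 3, the highest sample. As a share of the summed elongase TPM, elovl6 was 19.08% to 22.8% in wild-type and 17.1% to 19.08% in mutant eyes, so the genotypes met at their edges. Because the shares add to a fixed total, the share of a member also depends on the levels of the others. The part of the other members in the elovl6 share was not tested.

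The table describes 2 further genes as elongases, elovl8a and elovl6l, which are outside the named list. elovl8a (chromosome 2, 27403300 to 27409706), the fish-group partner of elovl8b, was well expressed, with a wild-type mean of 83.6 ± 17.8 TPM (SD, n = 6) that places it between elovl6 and elovl4a. It had 49.1, 56.6 and 77.3 CPM (lowest, median, highest) in wild-type and 29.4, 40.7 and 47.2 CPM in mutant samples. In CPM every mutant was below every wild-type fish, as 2.14% of all genes were. In TPM the ranges overlapped, at 70.2 to 115 in wild-type and 45.8 to 72.9 in mutant samples. Its log2 fold change was -0.58, with a standard error of 0.13 (adjusted p = 0.0115, edgeR quasi-likelihood test), and the exact permutation p of 0.00216, unadjusted and two-sided, was the smallest that 924 arrangements can give. It kept an adjusted p under 0.05 in 20 of the 21 alternative fits and lost it when the replicate number was a block (log2 fold change -0.58, adjusted p = 0.0694, edgeR). With a sample left out its log2 fold change was between -0.62 and -0.47. It was -0.47 (adjusted p = 0.0192, edgeR) without wild-type replicate 3, the highest sample for elovl8a. Some tissue markers were lower in the mutants as well. Of 5 erythrocyte markers, hbaa1 and hbaa2, both alpha globin genes, were lower, with log2 fold changes of -1.10 and -1.78 (adjusted p = 0.0479 and 0.00900, edgeR), and the list had a median of -1.03, summed levels of 466 to 1900 CPM in wild-type and 429 to 682 CPM in mutant samples, and no marker at 0. Of 7 tested skeletal muscle markers, acta1b was lower, with a log2 fold change of -1.03 (adjusted p = 0.0433, edgeR), and the summed levels of that list were 1055 to 3167 and 1226 to 2744 CPM. The cone opsin gene opn1mw1 and the pigment cell gene dct were also lower, with log2 fold changes of -4.56 and -0.57 (adjusted p = 0.000220 and 0.0467, edgeR), as 1 of 13 cone and 1 of 9 retinal pigment epithelium markers. No other marker of either list passed. Both signs occurred among them, as in opn1sw1 (-0.39) and guca1d (0.28) of the cone list and best1 (-0.30) and pmela (0.20) of the other. The median log2 fold change was -0.16 over the cone list and -0.04 over the pigment epithelium list. Summed levels were 20113 to 29035 CPM in wild-type and 17577 to 24703 CPM in mutant samples for the cone list. For the pigment epithelium list they were 1691 to 2816 and 1814 to 2577 CPM. None of the 11 rod markers passed, and their median log2 fold change was -0.18. Summed levels of the rod list were 23901 to 35764 CPM in wild-type and 22341 to 35089 CPM in mutant samples. Of all genes tested, 4.27% were lower at an adjusted p under 0.05. The part of these tissues in the difference of elovl8a was not tested. elovl6l (chromosome 13, 21666521 to 21671986) was at 9.98 to 21.5 CPM in wild-type and 14.3 to 36.4 CPM in mutant samples, giving a log2 fold change of 0.63 (95% interval 0.16 to 1.11, adjusted p = 0.0785, edgeR). It passed with DESeq2 (adjusted p = 0.0420) and without mutant replicate 2 (0.0377).

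How members varied among fish of the same genotype was described by the Pearson correlation of log2(CPM + 1) over the 12 samples after the mean of each genotype was taken away, with no test. Genes measured in the same sample share its tissue make-up and depth. elovl4b and elovl6 went together most closely (r = 0.92, and 0.87 over 11 samples without wild-type replicate 3), and elovl4b and elovl8a came next of the pairs with elovl4b (r = 0.74, then 0.59). elovl1b ran against elovl8a (r = -0.75), elovl2 (-0.71), elovl4b (-0.70) and elovl6 (-0.64), and with elovl5 (0.65). elovl1a and elovl7a also went together (r = 0.66, then 0.61), while elovl1a and elovl1b did not (r = -0.09). Many genes outside the family had a higher r. Among all genes that passed the filter, elovl6 ranked 74 and elovl8a 1100 in likeness to elovl4b. In the same ranking elovl5 was 1334 for elovl1b, and elovl7a was 286 for elovl1a.

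For each tested member the 3 genes most like it by this measure were taken from all 18984 genes that passed the filter. Because they are the highest of so many genes over 12 samples, a high r arises from the selection alone. How far these exceed that level was not tested. Of these 24 genes, 11 were still among the first 3 without wild-type replicate 3. Those for elovl4b were onecutl (r = 0.97), gria3a (0.97), an AMPA-type glutamate receptor subunit, and slc25a39 (0.97), and for elovl6 they were ubtd1a (0.96), six6b (0.96), an eye homeobox gene, and rhol (0.95), described as rhodopsin-like. None of those 6 stayed among the first 3 without that sample. For elovl4a they were fscn2a (0.93), a retinal actin-bundling protein, si:dkey-112m2.1 (0.93) and dlgap1a (0.90). For elovl1a they were stard14 (0.94), cdc34a (0.92) and slc43a1a (0.89), and for elovl7a si:dkey-54h16.1 (0.94), mfsd6a (0.93) and bcl6ab (0.93). For elovl1b they were apbb1ip (0.96), hmha1b (0.94) and flna (0.93), for elovl5 c7b (0.88), bcar1 (0.87) and si:dkey-34d22.1 (0.87), and for elovl2 LOC110438252 (0.92), pacs1a (0.91) and cdh7 (0.90).

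Genes that supply, use or complete the elongation cycle were read from the same fit. Of 76 tested genes in these lists, 10 had an adjusted p under 0.05, which is 13.2% against 11.2% of all genes, with 6 higher and 4 lower in the mutants. Among 8 tested partner enzymes of the cycle, 1 was lower and 1 higher. hsd17b12b, a ketoacyl-CoA reductase gene, was at 53.1 to 79.5 CPM in wild-type and 43.0 to 60.8 CPM in mutant samples, giving a log2 fold change of -0.37 (adjusted p = 0.0469, edgeR), a call lost in 9 of the 12 fits that left out a sample. Its counterpart hsd17b12a was at a mean of 65.5 and 82.9 CPM, a log2 fold change of 0.34 that did not pass (adjusted p = 0.0571, edgeR). tecrl2a, related to the enoyl-CoA reductases, was at 1.19 to 9.03 and 8.56 to 16.2 CPM, a log2 fold change of 1.45 (adjusted p = 0.0428, edgeR), and that call was lost in 10 of the 12 fits. The main enoyl-CoA reductase gene tecrb, at a mean of 104 and 101 CPM, did not pass (adjusted p = 0.897, edgeR).

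Of 7 desaturase genes, fads6 alone passed. fads6 was at 11.2 to 20.2 CPM in wild-type and 7.05 to 10.7 CPM in mutant samples, without overlap, as 2.14% of all genes were in that direction. Its log2 fold change was -0.63 (adjusted p = 0.0268, edgeR). That call was lost without wild-type replicate 6 or mutant replicate 1, 4 or 5, with adjusted p up to 0.0704. fads2, the desaturase that works with elovl2 and elovl5, had a log2 fold change of -0.37 that did not pass (adjusted p = 0.120, edgeR). Of 11 genes for the synthesis of the starting chains, acacb, an acetyl-CoA carboxylase gene, was higher. Its levels were 11.5 to 26.1 CPM in wild-type and 25.4 to 46.6 CPM in mutant samples (log2 fold change 0.98, adjusted p = 0.00923, edgeR), while fasn, the fatty acid synthase gene that makes the palmitate used by elovl6, had a log2 fold change of 0.11 (adjusted p = 0.433, edgeR).

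Acyl-CoA synthetases and transport proteins activate fatty acids before elongation, and 3 of their 15 tested genes were higher and none lower. Over all genes, 6.92% were higher and 4.27% lower at an adjusted p under 0.05. acsl2 was higher in every mutant, at 47.9 to 51.8 CPM against 23.6 to 42.4 CPM in wild-type samples (log2 fold change 0.59, adjusted p = 0.0119, edgeR). Such a separation, with the mutants higher, was seen for 3.69% of all genes. acsl4b and slc27a6 had log2 fold changes of 0.58 and 0.42 (adjusted p = 0.0227 and 0.0288, edgeR), and the call of slc27a6 was lost without wild-type replicate 6 or mutant replicate 2 (adjusted p up to 0.0557). Among 14 tested fatty acid carriers, 2 were lower. fabp11b, a fatty acid binding protein gene, was at 17.8 to 31.6 CPM in wild-type and 9.998 to 18.2 CPM in mutant samples (log2 fold change -0.97, adjusted p = 0.00686, edgeR), and acbd3, whose product binds acyl-CoA but is best known as a Golgi scaffold, had a log2 fold change of -0.72 (adjusted p = 0.00187, edgeR). Of 8 ceramide synthase genes, which join very long chains to sphingoid bases, cers2a was higher (log2 fold change 0.72, adjusted p = 0.0242, edgeR), a call lost without mutant replicate 2 (adjusted p = 0.0558). None of 13 genes for the peroxisomal breakdown of very long chains passed, and their median log2 fold change was 0.03.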

How the data were processed

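The authors aligned the reads to GRCz11 (HISAT2 2.1.0 in the submitters' notes) and deposited raw counts of reads per gene, and TPM values that equal count over listed length to within 4.99e-06. The counting program and its use of strand are not given in the sources used here. The count model was fitted with edgeR 4.0.16 under R 4.3.3 (TMM, filterByExpr, glmQLFit, glmQLFTest, genotype only), adjusted by Benjamini-Hochberg over 18984 genes. Standard errors come from the F statistic. DESeq2 1.42.0 and limma 3.58.1 (voom, quality weights) were alternatives, with other scalings, filters, a replicate block and each sample left out. The tests were checked on simulated counts. TPM served for levels, shares and ratios between genes, which are also given by genotype. Tests between genotypes used counts or CPM. Within each genotype no 2 samples were the same library (chi-square per degree of freedom at least 7.43), and pairs across genotypes were not compared. P-values set the difference between genotypes against the spread between these fish, and do not cover differences of line, tank or batch. The members and lists were chosen with earlier results of these data known. Named genes were all elongases, lrpap1, listed genes past an adjusted p of 0.05, and the 3 genes most like each member; other genes were named after their values were seen.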

Additional observations from a re-analysis of the deposited data

Results flagged for a closer look

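Among 38 sets of 6 values (CPM of the elongases and lrpap1, counts of elovl8b, total counts and summed levels), 4 held an extreme sample. The measure was Dixon's ratio, in which the distance from the extreme value to its neighbour is divided by the range of the 6, and chance alone marks about 1 in 20 sets, or 1.9 here. elovl1b in wild-type replicate 5 was at 55.1 CPM, with the other wild-type fish at 35.7 to 41.4 (ratio 0.710). elovl4b in wild-type replicate 3 was at 545 CPM, with the others at 348 to 415 (ratio 0.660). elovl5 in mutant replicate 2 was at 25.8 CPM, with the other mutants at 15.0 to 17.5 (ratio 0.767). Wild-type replicate 1 had a total count of 7988538, and its group otherwise held 9142860 to 9829112 (ratio 0.627). The rule did not mark the summed lens markers of wild-type replicate 3, because the other wild-type fish were widely spread. That sample was at 160 CPM and the others at 16061 to 31123 CPM (ratio 0.514).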

How the results depend on the processing

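elovl1a was past an adjusted p of 0.05 in every fit, and the number of elongases past it rose from 1 to 2, with elovl7a added, under DESeq2, limma, library size scaling and a filter that required 10 counts or more of each sample, with a range of 1 to 2 when each sample was left out. With a minimum log2 fold change of 1 the number was 0 in the main fit, where elovl1a was at 0.998. In some alternative fits elovl1a was over 1, as with DESeq2 (1.01), and in others under it, as with the replicate block (0.96). For all genes the number was 3355 with DESeq2, 864 with the minimum fold change and 1437 to 2720 with a sample left out. The count over the lists of related genes was 6 to 12 with a sample left out, and 6 without wild-type replicate 6 or mutant replicate 2. The log2 fold change of elovl4b was -0.13 to 0.03 with a sample left out, and changed sign only without wild-type replicate 3 (0.029). Of the 24 genes most like a member, 11 remained without that sample. The labels link same-numbered samples only by that number. Their deviations correlated at -0.269 to 0.0947, and 1 wild-type sample of 6 correlated best with its own number. Such correlations cannot show that no batch was shared. The replicate block gave 1202 genes and elovl8a an adjusted p of 0.0694 (edgeR), with no call of a member changed. Every other alternative that was run kept the direction of all 8 tested members. elovl2 and elovl8b are limited most by depth.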
